A study of Mus musculus with 6 samples.

Results

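Socs1, Socs2, Socs3 and Cish encode 4 members of the SOCS family, the proteins that brake cytokine signalling, and their transcripts were counted in leukocytes of mouse MC38 tumours. The 4 genes were taken by symbol from the 32285 genes of the count tables, and all 4 were measured. In GRCm38, Socs1 (ENSMUSG00000038037) lies on chromosome 16 at 10782240 to 10785536 (minus strand), Socs2 (ENSMUSG00000020027) on chromosome 10 at 95385362 to 95417180 (minus strand), Socs3 (ENSMUSG00000053113) on chromosome 11 at 117966079 to 117970047 (minus strand) and Cish (ENSMUSG00000032578) on chromosome 9 at 107296026 to 107302784 (plus strand). Cish overlaps an annotated antisense transcript and a pseudogene on the other strand. The sources used here do not say whether counting used strand, so it is not known whether reads of these transcripts entered the Cish counts. The members were chosen by family and selected on measured values of the genotype contrast, that of Socs1 in Treg cells at least. Levels between genotypes are therefore given as a description. Differences between cell classes inside control tumours come from another contrast and were tested, but whether those levels also bore on the choice is not known. Their p-values set each difference against the spread between samples and do not support the choice of members. Changes of other genes of the pathway were tested too, but their lists were also chosen with earlier results of these data known. Their calls and shares therefore do not support the choice of lists.

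The tested mice carried a tamoxifen-inducible knockout of Ctcf in regulatory T cells (Treg cells) and are called cko (n = 3). Control mice, called ctr (n = 3), had intact Ctcf in Treg cells. Live cells bearing CD45, the surface protein of leukocytes, were sorted from tumours 25 days after MC38 cells, a mouse colon adenocarcinoma line, had been placed under the skin of either kind of mouse, and were profiled by droplet 5′ single-cell RNA sequencing with unique molecular identifiers (UMIs). The labels name neither the driver of the knockout nor the deleted part of Ctcf, whether ctr mice received tamoxifen, nor the age or sex of the mice.

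Cytokine receptors that signal through Janus kinases (JAKs) activate STAT transcription factors, and these switch on SOCS genes among their targets. The SOCS proteins then act on the same receptors as negative feedback. SOCS1 inhibits JAKs downstream of interferon-γ and of the receptors that share the common γ chain, and mice that lack it die of inflammation. CIS, the product of Cish, is induced by STAT5 after interleukin-2 and dampens STAT5 and T cell receptor signalling. SOCS3 restrains STAT3 signalling by receptors that use gp130, such as that for interleukin-6, and SOCS2 is best known for limiting growth hormone signalling through STAT5. In Treg cells, SOCS1 is known to protect Foxp3 expression and suppressive function against interferon-γ.

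Promoter stretches are shown because the STAT-type and interferon-regulatory-type motifs in them differ between the members. They come from RefSeq windows on GRCm38.p6, which run from 250 bases before the start annotated by RefSeq to 50 bases after it. These starts differ from the gene spans given above, which come from another annotation. The printed stretches of Socs3 and Cish lie inside those spans. The table matched 3 of the 4 genes; Socs2 is named only. The motif TTCNNNGAA, which reads the same on both strands, was found in 8.3% of all 32851 windows, and the run of GAAA, any 2 bases and GAAA again, searched on both strands, in 3.44%. Each stretch is written 5′ to 3′ on the gene's own strand, with the motif matches in capitals.
Socs1, chr16:10785589-10785644, minus strand: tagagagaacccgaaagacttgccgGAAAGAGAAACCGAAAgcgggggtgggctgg
Socs3, chr11:117969497-117969545, minus strand: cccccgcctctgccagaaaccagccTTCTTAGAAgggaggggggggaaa
Cish, chr9:107296634-107296678, plus strand: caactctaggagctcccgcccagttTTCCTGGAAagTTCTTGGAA
The Socs1 window held 2 overlapping matches to the GAAA repeat and no TTCNNNGAA. The Socs3 window held 1 TTCNNNGAA, and the Cish window 2 of them side by side at the annotated start, a number found in 0.457% of windows. These are matches of letters and no binding was measured.

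Of 41679 barcodes, 37148 cells were kept, 18733 of cko and 18415 of ctr tumours. Libraries held 45322797 to 55515267 UMIs and 5551 to 6823 kept cells, with medians of 5136 to 7899 UMIs per cell. Cells were gated on marker transcripts, none of them a SOCS gene, into Treg cells (527 of cko, 1245 of ctr), conventional CD4 T cells (456 and 260), CD8 T cells (6103 and 3793), NK cells (512 and 1208), macrophages (1939 and 4201) and conventional dendritic cells, cDC (265 and 558). These 21067 cells gave 1 sum of raw counts per class and sample, from 40 to 2372 cells each. In these sums Socs1 had 31 to 1906 counts, Socs2 1 to 432, Socs3 44 to 10365 and Cish 12 to 3024. Ctcf in Treg sums stood at 54.2, 72.1 and 64.4 CPM (counts scaled to the total of the sum) in cko replicates 1 to 3, against 74.2, 84.7 and 94.3 CPM in ctr replicates 1 to 3 (log2 fold change -0.43, SE 0.15, edgeR adjusted p = 0.224). The groups did not overlap, and reads from outside the deleted part would still be counted.

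Some libraries and gates stood apart. The T cells of cko replicates 1 and 3 shared 197 paired receptor clonotypes of 616 and 711, which held 82.0% and 69.8% of their receptor-bearing cells; other pairs of libraries shared at most 3, and no cko library shared any with a ctr library. The labels call all 3 cko samples biological replicates, but with this sharing cko may hold only 2 independent animals, while every cko SD, SE and p below takes them as 3. With replicates 1 and 3 added together, the Socs1 fold change given below was 0.595 in Treg cells and 0.71 in macrophages on the log2 scale. Between 41 and 81 cell barcodes occurred in both libraries of a pair. Clusters named for B and plasma cells held 333 cells in cko replicate 2 and 8 to 25 in the other libraries. The macrophage gate took in cells at the border with monocytes: 3165 of its cells fell in macrophage-named and 2675 in monocyte-named clusters. Cells in monocyte-named clusters made up 80.9%, 71.7% and 75.9% of the gate in cko replicates 1 to 3, against 29.7%, 28.5% and 26.5% in ctr replicates 1 to 3.

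Within ctr tumours, each member had its own order over the 6 classes. Cish was highest in Treg cells, Socs1 in Treg and conventional CD4 cells, Socs2 in Treg cells and cDC, and Socs3 in macrophages. The differences were tested with edgeR's quasi-likelihood test on the 18 ctr sums, with the sample as a block and adjustment over all 11586 genes. The threshold was 0.05. In Treg cells against conventional CD4 T cells, 16.2% of all genes passed it; Cish and Socs2 were higher and Socs3 lower in Treg cells, while Socs1 did not pass.

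Cish had 278, 346 and 326 CPM in the Treg sums of ctr replicates 1 to 3, against 109, 69.0 and 124 CPM in conventional CD4 and 109, 134 and 122 CPM in CD8 T cells. Every Treg value lay above every value of the other T cell classes. The difference was 1.56 on the log2 scale over conventional CD4 cells (SE 0.24, adjusted p = 0.000558) and 1.27 over CD8 cells (SE 0.15, adjusted p = 1.61e-05; 31.2% of all genes passed), in 3 of 3 samples. The first difference was smaller where the conventional CD4 class was drawn another way. It was 0.54 with classes from clusters (adjusted p = 0.0232). With conventional CD4 cells gated on Cd40lg, an alternative chosen after seeing the data that lets in Il2ra-bearing cells, it was 0.59 (adjusted p = 0.174, the highest over 9 alternatives, whose lowest was 3.26e-09). Below Treg cells the means of CD8, conventional CD4, macrophage, cDC and NK sums were 122, 101, 62.5, 58.8 and 58.2 CPM, and no neighbours in that order passed the test. Conventional CD4 cells lay above CD8 cells where classes came from clusters (log2 CD8 over conventional CD4 -0.72) or from the Cd40lg gate (-0.69), against 0.28 with the main gate.

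Socs1 did not differ beyond its spread between the CD4 classes. It had 166, 179 and 213 CPM in Treg sums of ctr replicates 1 to 3, against 169, 178 and 182 CPM in conventional CD4 sums (log2 0.15, SE 0.14, adjusted p = 0.532). The means then ran 103 CPM in CD8, 88.3 in NK, 65.0 in macrophage and 56.0 in cDC sums. Conventional CD4 cells passed over CD8 cells (log2 0.61, SE 0.14, adjusted p = 0.0027; 18.6% of all genes passed), CD8 cells over NK cells (0.25, SE 0.09, adjusted p = 0.045; 36.5%) and macrophages over cDC (0.34, SE 0.11, adjusted p = 0.00968; 51%), while NK cells and macrophages did not differ beyond their spread. These 3 steps were fragile. The first reached 0.0568 without ctr replicate 3 (lowest 0.000152 over 9 alternatives), and the second was lost without any one of the 3 replicates (0.0886 to 0.173; 0.0133 to 0.268 over 8 alternatives). The third was lost without ctr replicate 1 (0.365) or 3 (0.0593; lowest 0.000643 over 8 alternatives).

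Socs3 was the macrophage gene of the family. Macrophage sums of ctr replicates 1 to 3 held 795, 612 and 633 CPM, against 159, 288 and 259 CPM in conventional CD4 sums (log2 2.05, SE 0.19, adjusted p = 2.63e-07; 47.5% of all genes passed; 2.72 with classes from clusters and 3.01 with the Cd40lg gate). Conventional CD4 cells and cDC, with means of 235 and 224 CPM, did not differ beyond their spread; by clusters and by the Cd40lg gate cDC lay higher (log2 conventional CD4 over cDC -1.37 and -1.28). NK, Treg and CD8 cells stood lower at 46.0, 41.2 and 37.6 CPM, with cDC over NK at 2.52 (SE 0.17, adjusted p = 3.92e-09; 58.6% of all genes passed). Treg cells held less Socs3 than conventional CD4 cells in 3 of 3 samples (log2 -2.44, SE 0.22, adjusted p = 1.68e-06). This was -1.66 with classes from clusters and -1.48 with the Cd40lg gate, and passed in all 9 alternatives (adjusted p from 3.06e-27 to 0.000966).

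Socs2 was the least counted member. Treg sums of ctr replicates 1 to 3 held 54.3, 67.1 and 67.5 CPM, against 60.9, 49.3 and 48.7 CPM in cDC sums, and these did not differ beyond their spread. Conventional CD4 sums held 42.3, 5.75 and 14.1 CPM, where the middle value is 1 count. Treg cells passed over them (log2 1.66, SE 0.40, adjusted p = 0.00754), and so did cDC (1.70, SE 0.40, adjusted p = 0.00197; 44.7% of all genes passed). With classes from clusters the 2 differences were 0.99 and 0.52 and still passed. Without ctr replicate 3 both were lost, at adjusted p = 0.208 and 0.062 (lowest 0.000463 and 0.000106 over 9 alternatives each). Macrophages at 10.9 CPM passed over NK cells at 6.23 CPM (log2 1.24, SE 0.27, adjusted p = 0.000401; 69.7%).

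The cDC level of Socs2 came from few cells. In the cDC with UMIs of both Ccr7 and Fscn1, which mark migratory, mature dendritic cells, Socs2 stood at 556, 514 and 505 CPM in cko replicates 1 to 3, against 554, 679 and 548 CPM in ctr replicates 1 to 3. These were 39 cells of cko and 64 of ctr tumours. In cDC with a UMI of Xcr1 or Clec9a, markers of cross-presenting cDC1, the means were 12.3 ± 8.96 CPM in cko and 10.6 ± 5.49 CPM in ctr sums, and in those with Cd209a, a marker of the other main subset, 5.62 ± 9.73 and 8.88 ± 1.44 CPM (SD, n = 3 each). The genotypes overlapped in all 3 subsets. The mature cells were 18.4%, 8.33% and 18.3% of cDC in cko and 15.6%, 8.29% and 11.1% in ctr replicates 1 to 3. Among cko samples, the mature share and the Socs2 level of the whole class were both lowest in replicate 2. Among ctr samples the mature share was lowest in replicate 2, but the Socs2 level in replicate 3, at 48.7 CPM. The part of the mature share in these levels was not tested.

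**Figure D1:**
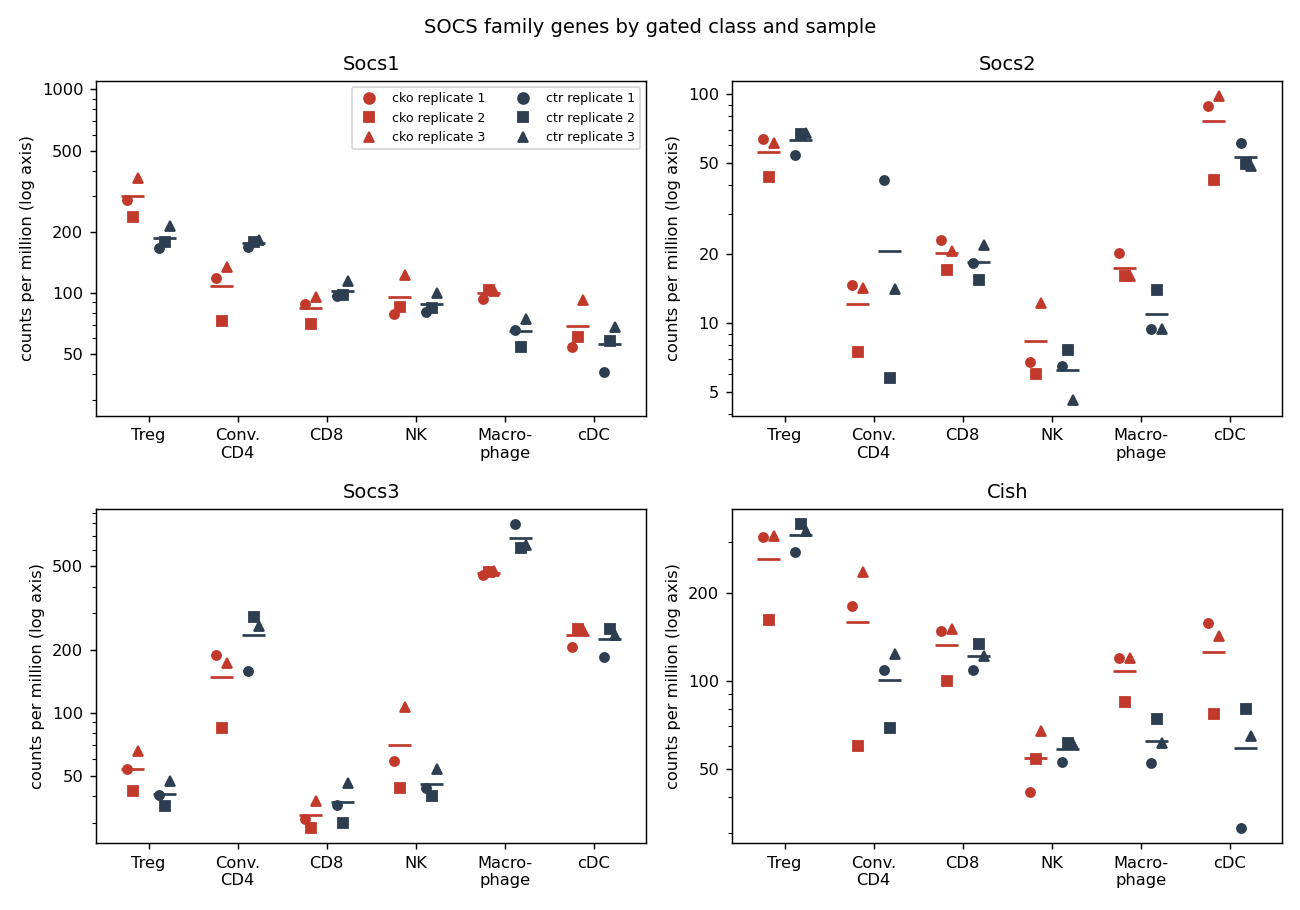
Levels in CPM of Socs1, Socs2, Socs3 and Cish (log axes that differ between panels) in 6 marker-gated classes; each point is the sum of 1 sample, red for cko and dark blue for ctr, and horizontal lines are group means (n = 3). Cish is highest in Treg cells and Socs3 in macrophages, and in Treg cells the 3 cko values of Socs1 lie above the 3 ctr values.

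In Treg cells of cko tumours, Socs1 stood higher than in ctr tumours while the other members overlapped. Socs1 had 288, 238 and 369 CPM in cko replicates 1 to 3, against 166, 179 and 213 CPM in ctr replicates 1 to 3. Every cko value lay above every ctr value, as for 11.1% of the 9427 genes tested in this direction. The fitted log2 fold change was 0.65 (SE 0.17), or 1.57-fold, and ran from 0.48 to 0.80 as each sample was left out, highest without cko replicate 2. In single cells, 46.1% of cko and 31.2% of ctr Treg cells held at least 2 Socs1 UMIs, and the cell with most held 38 and 20.

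Inside divisions of the Treg gate, Socs1 stood apart between genotypes in some parts and overlapped in others. No share of all genes stands beside these placements. In Treg cells with a UMI of Ccr8, a chemokine receptor of tumour-resident Treg cells, Socs1 had 234, 260.0 and 328 CPM in cko, against 166, 175 and 220 CPM in ctr replicates 1 to 3, with no overlap. Treg cells without a Ccr8 UMI had 524, 190 and 626 CPM in cko, against 165, 222 and 159 CPM in ctr replicates 1 to 3. There cko replicates 1 and 3 were far above every ctr sample and cko replicate 2 lay between them. Cells without a Foxp3 UMI had 272, 269 and 306 CPM in cko, against 176, 164 and 209 CPM in ctr replicates 1 to 3, again without overlap. Cells with one averaged 335 ± 127 CPM in cko and 189 ± 36.7 CPM in ctr sums (SD, n = 3 each). Among these, cko replicate 2 at 219 lay just below ctr replicate 3 at 220.2. Cells with a UMI of Tcf7, one of the conventional CD4 markers, averaged 220.6 ± 79.5 CPM in cko and 144.5 ± 57.6 CPM in ctr sums, with overlap. Those without a Tcf7 UMI averaged 322.6 ± 60.4 and 189.5 ± 24.9 CPM (SD, n = 3 each), without overlap. Ccr8-bearing cells were 70.7%, 61.2% and 79.4% of the gate in cko, against 90.8%, 88.9% and 86.9% in ctr replicates 1 to 3. The part of this shift in the Socs1 difference was not tested. Of the 10 Treg markers, 2 were lower in cko Treg sums by the edgeR test, and their summed level was 4112 to 6208 CPM in cko and 6338 to 8034 CPM in ctr sums.

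Cish, the Treg-high brake, had 313, 163 and 314 CPM in Treg sums of cko replicates 1 to 3, against 278, 346 and 326 CPM in ctr replicates 1 to 3 (log2 fold change -0.30, SE 0.24). The low value belongs to cko replicate 2 alone, and without it the fold change was -0.04. Socs2 had 63.6, 43.6 and 60.8 CPM in cko, against 54.3, 67.1 and 67.5 CPM in ctr replicates 1 to 3 (log2 -0.21, SE 0.18), with overlap. Socs3 had 54.2, 42.5 and 65.6 CPM in cko, against 40.5, 35.9 and 47.2 CPM in ctr replicates 1 to 3 (log2 0.36, SE 0.19). Its groups overlapped only through cko replicate 2. The 11 markers of macrophages, the class with most Socs3, summed to 20.1 to 34.3 CPM in cko and 60.0 to 123 CPM in ctr Treg sums. The part of macrophage transcripts in the Socs3 values of Treg sums was not tested. With Treg cells taken by a Foxp3 UMI only, the Socs3 fold change was 0.63.

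In conventional CD4 and CD8 T cells Socs1 lay on the other side. Conventional CD4 sums had 119, 73.1 and 134 CPM in cko replicates 1 to 3, against 169, 178 and 182 CPM in ctr replicates 1 to 3. Every cko value was below every ctr value, as for 4.56% of 6356 genes, and the log2 fold change was -0.77 (SE 0.23). It was -0.28 with classes from clusters, which held 539 to 850 conventional CD4 cells in cko libraries and 159 to 507 in ctr libraries. CD8 sums had 88.6, 70.5 and 95.3 CPM in cko, against 96.3, 97.5 and 115 CPM in ctr replicates 1 to 3. These groups too did not overlap, as for 9.72% of 11686 genes in this direction, by a margin of 1 CPM (log2 -0.31, SE 0.12; -0.19 without cko replicate 2). Among CD8 cells with a UMI of Havcr2, the checkpoint receptor TIM-3 of exhausted T cells, Socs1 averaged 73.2 ± 10.2 CPM in cko and 95.6 ± 12.1 CPM in ctr sums without overlap. Among those with none it averaged 106 ± 16.4 and 109 ± 8.28 CPM (SD, n = 3 each), with overlap. No share of all genes stands beside the placements in this division. Cells with a Havcr2 UMI, which held less Socs1, were 51.6%, 52.5% and 54.7% of CD8 cells in cko, against 38.1%, 38.4% and 33.0% in ctr replicates 1 to 3, and the part of this shift in the CD8 difference was not tested.

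The remaining members overlapped between genotypes in conventional CD4, CD8 and NK cells. In conventional CD4 sums Cish had 181, 60.0 and 237 CPM in cko, against 109, 69.0 and 124 CPM in ctr replicates 1 to 3 (log2 0.51, SE 0.54), where cko replicates 1 and 3 were highest and cko replicate 2 lowest. Socs3 there had 190, 84.4 and 172 CPM in cko, against 159, 288 and 259 CPM in ctr replicates 1 to 3 (log2 -0.72, SE 0.30). The 8 NK markers summed to 17.8 to 353 CPM in cko and 50.2 to 817 CPM in ctr sums of this small gate; their part in these values was not tested. In CD8 cells the fold changes of Socs2, Socs3 and Cish were 0.09 (SE 0.16), -0.25 (SE 0.17) and 0.09 (SE 0.16). In NK cells Socs1 had 78.8, 85.8 and 122 CPM in cko, against 80.3, 84.1 and 101 CPM in ctr replicates 1 to 3 (log2 0.03, SE 0.15). NK Socs3 had 59.2, 43.9 and 107 CPM in cko, against 43.9, 40.1 and 54.0 CPM in ctr replicates 1 to 3, and cko replicate 3 held the highest value of Socs1, Socs2 and Socs3 in this class.

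Macrophages were the class in which all 4 members stood apart between genotypes: Socs1, Socs2 and Cish were higher and Socs3 lower in cko tumours. Socs1 had 93.2, 103 and 102 CPM in cko replicates 1 to 3, against 65.7, 54.6 and 74.7 CPM in ctr replicates 1 to 3 (log2 fold change 0.69, SE 0.12). Cish had 120.3, 84.7 and 119.9 CPM in cko, against 52.4, 73.9 and 61.1 CPM in ctr replicates 1 to 3 (0.87, SE 0.15). Socs2 had 20.3, 16.1 and 15.97 CPM in cko, against 9.445, 13.9 and 9.449 CPM in ctr replicates 1 to 3 (0.73, SE 0.19). For these 3 genes every cko value lay above every ctr value, as for 14.4% of the 10771 genes tested. Socs3 had 453, 470.4 and 477 CPM in cko, against 795, 612 and 633 CPM in ctr replicates 1 to 3 (-0.47, SE 0.11), with every cko value below every ctr value, as for 25% of genes.

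These values stand beside a different make-up of the macrophage gate. C1qa, a complement gene of mature macrophages, had 1135, 1271 and 1323 CPM in cko sums, against 3662, 3066 and 3955 CPM in ctr sums of replicates 1 to 3 (log2 -1.45, SE 0.11, edgeR adjusted p = 4.34e-05). The 11 macrophage markers summed to 9284 to 11030 CPM in cko and 22760 to 27760 CPM in ctr sums, 6 of them lower in cko by the test, and the 5 monocyte markers to 5153 to 7731 and 4021 to 6136 CPM with 1 higher. Inside the cells that fell in monocyte-named clusters, Socs3 had 467, 510.0 and 488 CPM in cko, against 838, 698 and 793 CPM in ctr replicates 1 to 3, without overlap. Inside those in macrophage-named clusters it had 442, 360.4 and 453 CPM in cko, against 779.9, 584 and 568 CPM in ctr replicates 1 to 3, also without overlap. Lower Socs3 in cko was thus present on both sides of this division. Socs1 overlapped on both sides, at 106 ± 12.4 CPM in cko and 98.1 ± 28.5 CPM in ctr sums of monocyte-named clusters and 85.3 ± 41.6 and 50.6 ± 16.01 CPM in macrophage-named clusters, and so did Cish, at 116 ± 22.6 and 89.1 ± 10.2 CPM, and 77.8 ± 22.4 and 49.1 ± 11.2 CPM (SD, n = 3 each). Socs2 averaged 16.8 ± 2.34 and 11.2 ± 2.64 CPM in monocyte-named clusters without overlap, and overlapped in macrophage-named ones. Divided by UMIs of the C1q genes in place of clusters, Socs1 had 94.0, 116 and 95.5 CPM in cko cells with at least 10 of them, against 57.9, 51.7 and 72.2 CPM in such ctr cells of replicates 1 to 3. Cish had 115, 87.9 and 112 CPM in these cko cells, against 47.1, 69.1 and 56.7 CPM in the ctr cells. Neither gene overlapped there, while both overlapped among cells with fewer C1q UMIs. Among cells with a Ly6c2 UMI, Socs1 averaged 99.4 ± 5.09 and 66.4 ± 13.2 CPM and Cish 114 ± 21.9 and 71.4 ± 9.28 CPM (SD, n = 3 each), again without overlap. Socs3 was lower in cko without overlap on both sides of the C1q division and among cells with a Ly6c2 UMI. Among cells without one it overlapped, at 291, 486 and 380 CPM in cko, against 633, 442 and 453 CPM in ctr replicates 1 to 3. There were 25 such cells in cko replicate 2. Cish overlapped there too, while Socs1 and Socs2 did not. No share of all genes stands beside these placements. The shift in make-up moved with the Socs1, Socs2 and Cish differences, and its part in them was not tested further. The genotypes thus overlapped or not according to how the gate was divided, for these genes and for Socs3. With the whole class taken from clusters in place of the gate, the fold changes were 0.75 for Socs1, 0.14 for Socs2, -0.64 for Socs3 and 0.68 for Cish.

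In cDC the members overlapped between genotypes. Cish had 159, 77.3 and 142 CPM in cko replicates 1 to 3, against 31.3, 80.4 and 64.7 CPM in ctr replicates 1 to 3, a log2 fold change of 1.14 (SE 0.43). Here cko replicate 2 sat among the ctr values, and without it the fold change was 1.43. In cDC with a UMI of Xcr1 or Clec9a, Cish had 168, 67.8 and 137 CPM in cko, against 17.2, 66.3 and 51.0 CPM in ctr replicates 1 to 3. There the groups were apart, but cko replicate 2 lay just above ctr replicate 2, and no share of all genes stands beside this placement. Socs2 of the whole class had 88.6, 42.0 and 97.8 CPM in cko, against 60.9, 49.3 and 48.7 CPM in ctr replicates 1 to 3 (0.57, SE 0.30). Socs1 and Socs3 had fold changes of 0.34 (SE 0.24) and 0.10 (SE 0.13).

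**Figure D2:**
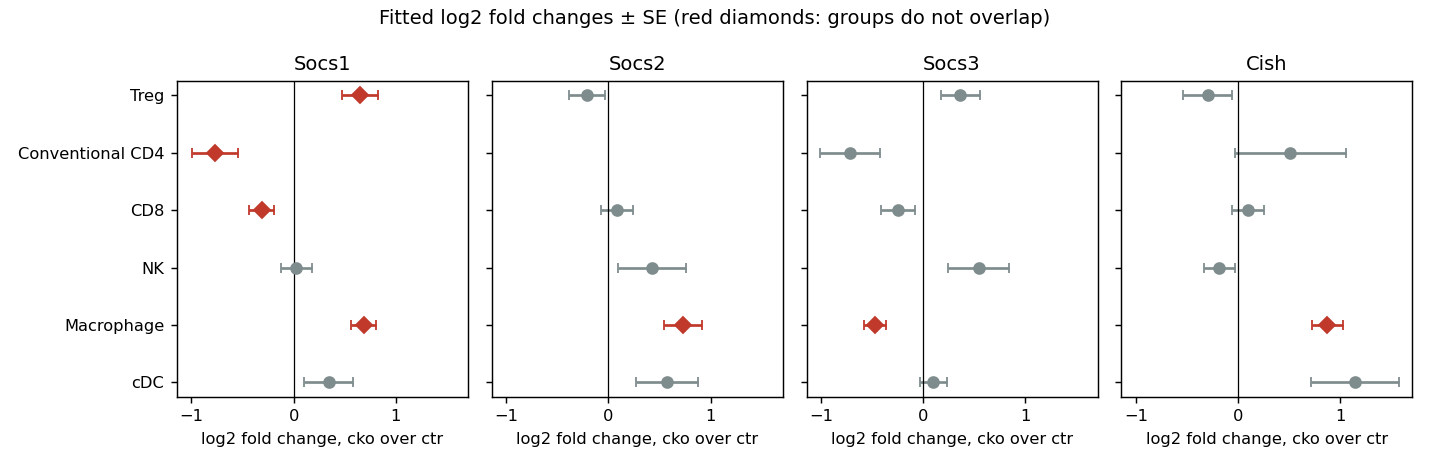
Fitted log2 fold changes, cko over ctr, of the 4 genes in 6 classes (x axis), with SE as bars; red diamonds mark genes whose 3 cko and 3 ctr values do not overlap, and Socs2 in conventional CD4 cells, which failed the filter on low counts, is left out. Socs1 lies above 0 in Treg cells and macrophages (0.65 and 0.69) and below 0 in conventional CD4 and CD8 cells (-0.77 and -0.31).

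**Figure D3:**
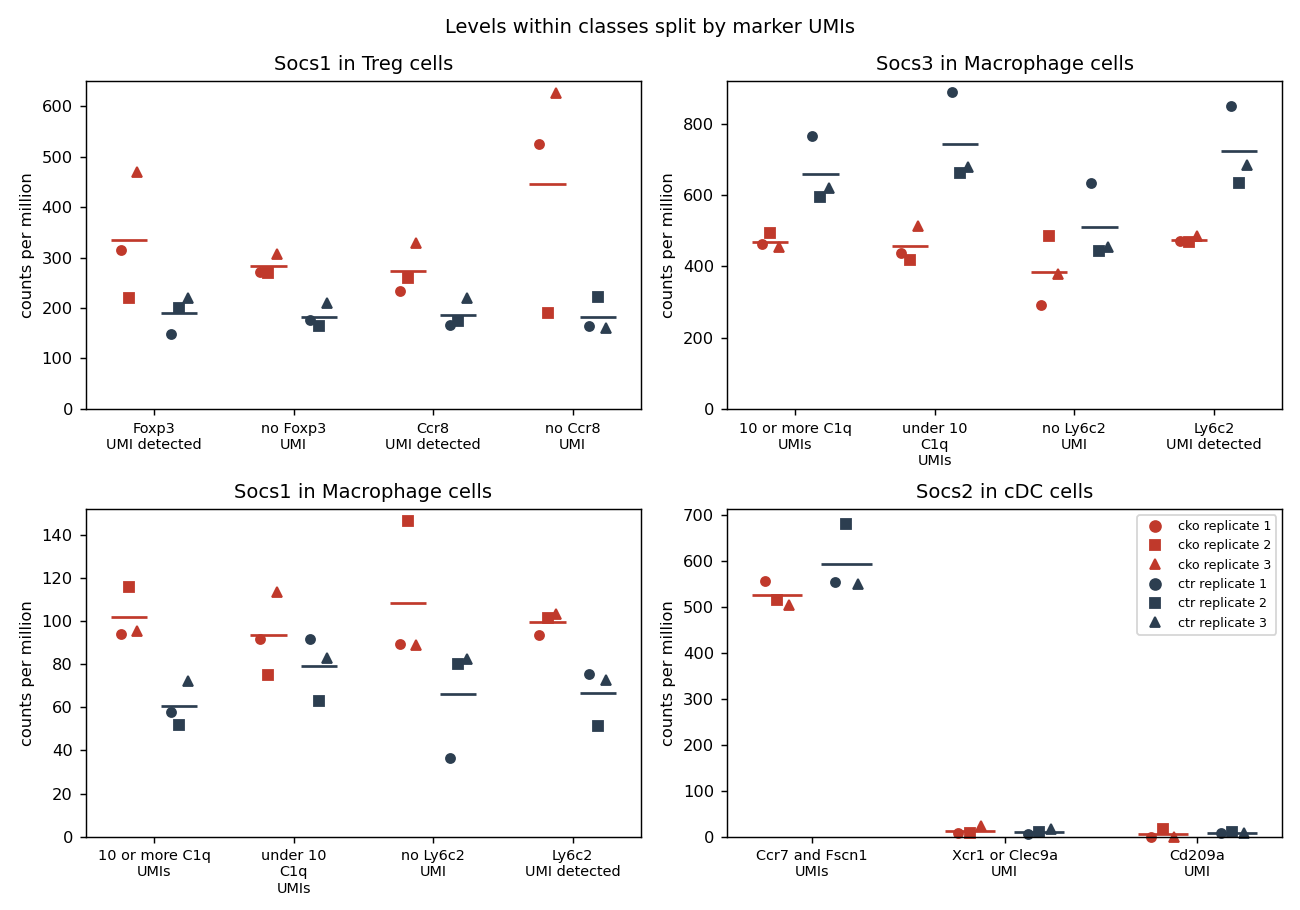
Levels in CPM of Socs1 in Treg cells, Socs3 and Socs1 in macrophages and Socs2 in dendritic cells, each class split by UMIs of marker genes; points are samples (red cko, dark blue ctr) and lines group means. Socs2 stands near 525 and 594 CPM in mature cDC of cko and ctr tumours and below 15 CPM on average in the other subsets.

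By the threshold used for all genes, 4 of 4 members passed in macrophages, where 19.5% of 10771 genes did (4 by DESeq2, which called 17% of all genes, 3 without ctr replicate 3, 2 without cko replicate 1 and 1 with classes from clusters). None passed in Treg cells (1.32% of all genes), conventional CD4 cells (0.157%, 3 members tested), CD8 cells (2.2%), NK cells (1.25%) or cDC (2.72%). At an unadjusted p under 0.05, edgeR counted 1, 2, 1, 0 and 1 members in those 5 classes, where 12.9%, 5.7%, 18.4%, 16.6% and 17.7% of all genes lay under it. DESeq2 called 0, 0, 0, 0 and 1 members in the same order, and 2.27%, 0.377%, 5.13%, 1.41% and 3.57% of all genes. Without cko replicate 2, edgeR called 1 member in Treg cells and 1 in cDC, with no filter on low counts 1 in Treg cells, and with classes from clusters 1 in cDC. Since the list was made with this contrast in view, nothing is read from these counts.

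Shares of cells with a UMI were compared at equal depth. With every cell thinned to 2000 UMIs, Socs1 was seen in 39.2% to 42.4% of Treg cells of cko and 26.4% to 30.6% of ctr samples, and in NK cells in 13.7% to 26.5% and 14.1% to 19.9%. Unthinned, the Treg shares were 66.7% to 74.2% and 55.7% to 58.9%, at median depths of 6162.5 to 6677.5 and 5556 to 6749 UMIs, and the NK shares 37.4% to 53.1% and 48.5% to 53.3%, at 6442 to 7370 and 9418.5 to 12074 UMIs. Thinning left out 761 shallower cells over all classes. Thinned Socs3 was seen in 47.2% to 51.5% of cko and 51.9% to 64.8% of ctr macrophages, against 5.51% to 6.55% and 6.07% to 9.60% of CD8 cells. Thinned shares and summed levels did not always place the genotypes alike. Thinning was done for the 4 members only, so no share of all genes stands beside these placements, and nothing is read from them. Thinned shares were apart where CPM overlapped for Socs3 in Treg cells (12.0% to 13.5% of cko and 5.56% to 8.54% of ctr samples), Socs3 in NK cells (10.3% to 19.0% and 8.71% to 9.21%), Socs3 in cDC (32.3% to 39.1% and 24.7% to 30.1%) and Cish in cDC (13.5% to 18.4% and 5.17% to 10.2%). They were apart too for Socs2 in NK cells, at 2.06% to 3.5% and 0.471% to 0.837%, a level of few UMIs. They overlapped where CPM were apart for Socs1 in CD8 cells (15.8% to 18.4% and 18.25% to 20.4%), in conventional CD4 cells (13.2% to 21.95% and 18.4% to 28.6%) and in macrophages (10.98% to 14.75% and 7.28% to 11.6%), and for Socs2 in macrophages. No class lacked any member, so a background share could not be set for these genes.

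The rest of the pathway was counted with edgeR's quasi-likelihood test over 96 listed genes. They were the other SOCS genes, JAKs and STATs, other brakes, receptors, ligands and target genes of STAT factors. Since the lists were chosen with earlier results of these data known, their shares beside those of all genes are a description. In Treg cells 2 rose and 1 fell of 81 tested (3.7%, beside 1.32% of all genes). Batf, a transcription factor of effector Treg cells, averaged 242 ± 20.2 CPM in cko and 113 ± 24.0 CPM in ctr sums (SD, n = 3 each; log2 1.07, SE 0.17, edgeR adjusted p = 0.0174). The interferon-induced GTPase gene Gbp3 rose (log2 0.87, adjusted p = 0.0445), and the suppressive cytokine gene Il10 averaged 8.27 ± 2.34 and 28.1 ± 5.73 CPM (log2 -1.75, SE 0.26, adjusted p = 0.0161). All 3 calls were lost without cko replicate 1 or 3 and with these added together; over all alternatives their adjusted p ran from 2.75e-05 to 0.102 for Batf, 0.00847 to 0.23 for Gbp3 and 2.8e-05 to 0.318 for Il10. Without cko replicate 2, 6 rose and 1 fell of 83. The median log2 fold change was -0.01 over the listed genes and 0.02 over all genes. Of the other SOCS genes, Socs4, Socs5, Socs6 and Socs7, 0 of 4 passed in Treg cells by edgeR or DESeq2, 0 of 4 at an unadjusted p under 0.05, with log2 fold changes between -0.27 and 0.06.

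In macrophages 17 rose (10.4% of all genes did) and 7 fell of 85 listed genes (28.2%, beside 19.5% of all genes in either direction), and 7 rose with classes from clusters. The median log2 fold change was 0.08 over the listed genes and -0.03 over all genes. Gbp2, an interferon-induced GTPase gene, averaged 739 ± 155 CPM in cko and 396 ± 78.5 CPM in ctr sums (log2 0.97, adjusted p = 0.00735), and Cd274, which encodes the checkpoint ligand PD-L1, averaged 329 ± 29.0 and 183 ± 50.8 CPM (0.92, adjusted p = 0.0101). Jak2, a kinase of the interferon-γ receptor, averaged 102 ± 11.4 and 53.4 ± 2.58 CPM (log2 1.00, adjusted p = 0.00022). Il6, a cytokine that signals through STAT3, averaged 15.4 ± 2.08 and 4.17 ± 1.55 CPM (1.97, adjusted p = 0.000521), while Il12b, a chain of interleukin-12, was lower at 0.0436 ± 0.0756 and 3.20 ± 1.85 CPM (adjusted p = 0.00389; 3.31e-06 to 0.587 over its alternatives, highest by clusters). Of 21 receptors 4 rose and 2 fell. Il7r averaged 81.4 ± 33.2 and 20.6 ± 6.45 CPM (log2 2.04, adjusted p = 0.0161), Il12rb2 5.41 ± 0.956 and 2.76 ± 0.803 CPM (1.01, adjusted p = 0.0271), and Csf2rb, a receptor chain for GM-CSF, 314 ± 26.9 and 220 ± 28.7 CPM (0.59, adjusted p = 0.00639). Il10ra, a receptor chain for interleukin-10, fell (-0.48, adjusted p = 0.00439). Il7r was lost without ctr replicate 2 or 3 or cko replicate 1 (4.7e-05 to 0.0729 over its alternatives), Il12rb2 also without cko replicate 2 (0.0111 to 0.0977), and Csf2rb by clusters (0.000139 to 0.211). Batf and Maf were the 2 of 6 STAT3 targets that fell. Jak2, Il6, Gbp2 and Gbp4 passed in each of the 6 fits that left out a sample and with classes from clusters; Cd274, Gbp5, Il10ra and Batf passed in the 6 fits but not by clusters (adjusted p = 0.0695, 0.06, 0.238 and 0.085, the highest over their alternatives, whose lowest were 1.7e-05, 7.12e-05, 0.000144 and 4.95e-06). Among the other brakes, the phosphatase gene Ptpn2 rose (0.65, adjusted p = 0.0021) and Ptpn1 fell (-0.41, adjusted p = 0.0169), Ptpn2 in every fit that left out a sample and Ptpn1 not without ctr replicate 2 or cko replicate 1; neither passed by clusters (adjusted p = 0.376 and 0.585, the highest over their alternatives, whose lowest were 2.48e-05 and 0.0079). Without cko replicate 1 the list gave 10 that rose and 3 that fell, and without ctr replicate 3, 10 and 4. The make-up shift of the gate described above moved with these genes too, and its part was not tested.

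In CD8 cells 3 listed genes rose and 2 fell of 82 (6.1%, beside 2.2% of all genes). Bcl2, a survival gene, averaged 102 ± 3.37 CPM in cko and 255 ± 48.5 CPM in ctr sums (log2 -1.37, SE 0.14, adjusted p = 0.00522), and Myc 32.5 ± 8.98 and 88.9 ± 13.1 CPM (-1.49, adjusted p = 0.0173), while Pim1, a kinase gene also induced by STAT5, averaged 214 ± 8.88 and 108 ± 21.5 CPM (0.96, adjusted p = 0.0131). The receptor genes Il12rb2 and Il7r rose as well. Members of the STAT5 target list thus moved in both directions, and no call was made without cko replicate 3, against 14 higher and 3 lower without cko replicate 2. In NK cells Il7r, Il2ra, Il12rb2 and Stat4 rose and none fell by edgeR of 73 (5.48%, beside 1.25%), and in cDC 7 rose of 74 (9.46%, beside 2.72%). Il7r, a receptor chain for interleukin-7, rose in cDC to 142 ± 9.89 CPM in cko, against 42.4 ± 7.57 CPM in ctr sums (log2 1.78, adjusted p = 0.000248), and Cd274 to 241 ± 44.4, against 101 ± 3.66 CPM (1.31, adjusted p = 0.0037), both in all 6 fits that left out a sample. Sums of marker lists differed in these gates too. The 5 conventional CD4 markers, Il7r among them, summed to 117 to 207 CPM in cko and 58.9 to 73.3 CPM in ctr NK sums. The 1 of them called higher was Il7r itself. The 3 mast cell markers summed to 68.7 to 103 and 14.9 to 32.5 CPM there, with 1 called higher. In cDC sums the conventional CD4 markers summed to 135 to 159.9 CPM in cko and 38.6 to 61.5 CPM in ctr samples. Most of this was Il7r, at 142 and 42.4 CPM on average, and Cd40lg stood at 0. Il7r was again the 1 called higher, so this sum does not stand apart from the Il7r rise. The 5 T cell markers summed to 7.44 to 14.3 CPM in cko and 5.36 to 8.56 CPM in ctr cDC sums. The 10 cDC markers summed to 2750 to 3574 and 1788 to 1948 CPM, with 1 called higher. The part of other cells in these rises was not tested. The NK calls fell to 0 without cko replicate 3 and to 1 without ctr replicate 3, and the cDC calls to 2 and 3 without those samples (12 higher and 1 lower without cko replicate 2). In conventional CD4 cells 0 of 67 passed by edgeR or DESeq2, with 13 and 6 at an unadjusted p under 0.05, and 3 rose without cko replicate 2.

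Across the 36 sums of class and sample, the genes most like each member by Pearson correlation of log2(CPM + 1) were taken from 7798 genes with a mean of at least 10 CPM. The sums of 1 class share their cell type and those of 1 library its depth, so the correlations are a description. Socs3 was most like Ifi204 (r = 0.926), Oasl2 (0.921), both interferon-induced genes, and Fos (0.92). Cish was most like Crem (0.882) and Map2k3 (0.858), Socs1 like S100a10 (0.845) and Dgat1 (0.835), and Socs2 like Nfkb2 (0.855), a subunit of the NF-κB family. Odc1, an enzyme of polyamine synthesis, stood among the first 5 for both Socs1 (0.834) and Cish (0.843). The members themselves were alike for Socs1 and Cish (0.709) and Socs2 and Cish (0.579), and Socs3 ran against Socs1 (-0.311) and Cish (-0.297).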

How the data were processed

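Per the submitters' processing notes, the authors made the deposited matrices of raw UMI counts with Cell Ranger 7.0.0 on mm10 (GRCm38). Here, cells needed 300 genes or more, 500 UMIs or more and no more than 10% mitochondrial reads. Scrublet (scanpy 1.11.5) called only 0.353% of barcodes doublets, so its 2328 highest scores were removed, in proportion to the barcodes of each library.

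T cells needed at least 2 UMIs of Cd3e, Cd3d and Cd3g. CD4 cells had Cd4 and no Cd8a or Cd8b1; Treg cells had Foxp3 or at least 3 of Ikzf2, Il2ra, Ccr8, Lrrc32 and Ikzf4, and conventional CD4 cells none of these 6. NK cells had at least 3 of 6 markers, macrophages at least 6 of 11 and cDC at least 3 of 10, with upper limits on other markers. These limits were set after the marker distributions had been seen; an alternative took classes from Leiden clusters.

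Counts were summed per class and sample and fitted with edgeR 4.0.16 (TMM, filterByExpr, quasi-likelihood, Benjamini-Hochberg, threshold 0.05); DESeq2 1.42.0 was an alternative. The SE beside an edgeR log2 fold change was worked back from the test, as its absolute value divided by the square root of the F statistic. The edgeR step was tested on simulated data. The labels call the 3 samples of a group biological replicates and give no batch or date. Members and lists were chosen with earlier results of these data known. Other genes are named where they passed, at most 4 per list and class by fold change. Some items are not reported here.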

Additional observations from a re-analysis of the deposited data

Results flagged for a closer look

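Socs1 did not overlap between genotypes in several classes, and the direction differed between these classes. All 3 cko samples lay above all 3 ctr samples in Treg cells (log2 fold change 0.65) and macrophages (0.69). All 3 cko samples lay below all 3 ctr samples in conventional CD4 T cells (-0.77) and CD8 T cells (-0.31). Groups stood apart in the same direction for 11.1%, 14.4%, 4.56% and 9.72% of all genes in these classes, in that order. How far these differences diverge between classes was not tested, since the gene was listed with this contrast known. Classes of 1 sample share its library, and in conventional CD4 cells the value moved to -0.28 with classes from clusters. In Treg cells Socs1 overlapped among cells with a Foxp3 UMI, among those without a Ccr8 UMI and among those with a Tcf7 UMI. In macrophages Socs1 overlapped inside both monocyte-named and macrophage-named clusters. In CD8 cells the margin was narrow, and cells without a Havcr2 UMI overlapped. Thinned shares of cells with a Socs1 UMI overlapped in conventional CD4 cells, CD8 cells and macrophages.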

How the results depend on the processing

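Of 283 fold changes of the 4 genes between genotypes in other settings, 278 moved by less than the spread between replicates, and 10 changed sign. The 5 that moved were Socs1 in conventional CD4 cells (-0.28), Socs2 (0.14) and Socs3 (-0.64) in macrophages with classes from clusters, Socs3 in Treg cells taken by Foxp3 alone (0.63), and Socs2 in NK cells, which ran from -0.0048 to 0.57 as samples were left out. Leaving out 1 of 3 samples can hardly move a fold change by more than this spread, so those fits say little about stability. Within it, Cish in Treg cells ran from -0.45 to -0.04 and Socs1 in cDC from 0.07 to 0.51 as samples were left out. Counts of called genes moved in many settings, and the cause was not tested.

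The number of all genes called was 124 in Treg, 10 in conventional CD4, 257 in CD8, 116 in NK, 2103 in macrophage and 233 in cDC sums, and that of listed pathway genes 3, 0, 5, 4, 24 and 7. DESeq2 called 214 genes in Treg, 23 in conventional CD4 and 599 in CD8 sums, and 5 pathway genes in Treg and 13 in CD8 sums. With no filter on low counts, 295 genes were called in Treg, 105 in conventional CD4, 620 in NK and 536 in cDC sums, and 6, 4, 11, 10 and 11 pathway genes in Treg, conventional CD4, CD8, NK and cDC sums. With cko replicates 1 and 3 added together, 26 genes were called in Treg, 28 in CD8, 46 in NK, 1377 in macrophage and 99 in cDC sums, and 0, 2 and 3 pathway genes in Treg, CD8 and cDC sums. Classes from clusters gave 206 genes in Treg, 0 in conventional CD4 (edgeR), 413 in macrophage and 744 in cDC sums, and 2, 7 and 15 pathway genes in NK, macrophage and cDC sums. Treg cells by Foxp3 alone gave 25 genes and 0 pathway genes. With 1 sample left out, all genes called ran from 32 to 257 in Treg, 2 to 83 in conventional CD4, 3 to 775 in CD8, 11 to 156 in NK, 963 to 2226 in macrophage and 49 to 518 in cDC sums. Pathway genes ran from 0 to 7, 0 to 3, 0 to 17, 0 to 5, 13 to 26 and 2 to 13 in the same order.

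The sample labels give replicate numbers but state no pairing. Same-numbered samples correlated at -0.09 to 0.22 in their deviations from the group means. The number of ctr samples most like the cko sample of their own number was 0 in Treg and 3 in conventional CD4 cells. With so few samples per group, this cannot settle whether the numbers pair the samples. With the replicate number as a block, 49 genes were called in conventional CD4 and 254 in NK sums, and 9, 7 and 11 pathway genes in CD8, NK and cDC sums, while the Socs1 fold change was 0.64 in Treg cells and 0.69 in macrophages.

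Of the differences between classes within ctr tumours, 159 kept their direction and side of the threshold, 9 came past it, 13 were no longer past it and 14 changed sign. Without the sample block, Socs1 was no longer called for CD8 over NK (0.24) and macrophage over cDC (0.35), and Socs2 for conventional CD4 over CD8 stood at 0.0031. DESeq2 gave 0.24 for Socs1 in CD8 over NK and 0.097 for Socs2 in conventional CD4 over CD8. With classes from clusters, Socs1 was 0.46 for NK over macrophage and 0.23 for macrophage over cDC. Socs2 was then 0.48 for Treg over cDC, 0.73 for conventional CD4 over CD8 and 0.38 for CD8 over macrophage (0.41 with no filter on low counts). Socs3 was -1.37 for conventional CD4 over cDC and -0.057 for Treg over CD8. Cish was -0.72 for CD8 over conventional CD4, 1.75 for conventional CD4 over macrophage and -0.20 for macrophage over cDC. With conventional CD4 cells by Cd40lg, Socs2 was 0.27 for conventional CD4 over CD8, Socs3 -1.28 for conventional CD4 over cDC, and Cish -0.69 for CD8 over conventional CD4, 1.33 for conventional CD4 over macrophage and 0.59 for Treg over conventional CD4. With 1 ctr sample left out, Socs1 ran from 0.56 to 0.67 for conventional CD4 over CD8, 0.22 to 0.29 for CD8 over NK and 0.13 to 0.53 for macrophage over cDC. Socs2 ran from -0.14 to 0.13 for Treg over cDC, 1.32 to 2.35 for cDC over conventional CD4, -0.76 to 0.56 for conventional CD4 over CD8, 0.20 to 0.76 for CD8 over macrophage and 1.18 to 2.48 for Treg over conventional CD4. Socs3 ran from -0.009 to 0.11 for Treg over CD8, and Cish from -0.087 to 0.50 for cDC over NK. The cause of these changes was not tested. Depth limits Socs2 most, with as few as 1 count in a conventional CD4 sum.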
